A study of Mus musculus with 12 samples.

Results

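The nuclear genes of the mitochondrial respiratory chain were chosen by symbol: genes whose names start with Nduf, Uqcr, Cox4, Cox5, Cox6, Cox7, Cox8 or Atp5, and Sdha to Sdhd. Of 85 such genes with a probe named on the array, 80 had a detection p-value under 0.05 on at least 2 of the 12 arrays, among 10144 genes that passed and were tested. These 80 genes, called chain genes here, comprised 34 genes named for complex I, 3 for complex II, 7 for complex III, 15 for complex IV and 16 for complex V, with 5 complex I assembly factors (Ndufaf1, Ndufaf3, Ndufaf4, Ndufaf5 and Ndufaf7). Cox4i2, Cox7b2, Cox8c, Ndufs1 and Uqcrq did not pass the detection filter. Sdha had no probe named on the array, and 0 subunits encoded by mitochondrial DNA were analysed here. Ndufs5-ps is annotated as a pseudogene, and its reading is uncertain.

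The respiratory chain lies in the inner mitochondrial membrane. Complex I takes electrons from NADH and complex II from succinate, complex III passes them through cytochrome c to complex IV, which reduces oxygen, and the proton gradient that results drives complex V, the ATP synthase. Several complex IV subunits exist in pairs, with a broadly used form and a form known from muscle, heart or testis. Neural stem cells in culture are known for active glycolysis, with respiration gaining weight as neurons form.

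RNA from 12 samples in 6 groups of 2 was read on Illumina mouse bead arrays. Peripheral neural stem cells (pNSCs), which are neural stem cell lines raised from tissue outside the brain and spinal cord, came from adult lung (alpNSCs) and embryonic limb (elpNSCs), each sampled late and early. They were set against neural stem cells of the brain (Control-NSC), whose age is not labelled, and Fibroblasts, to ask how close the peripheral lines are to brain cells. All 6 groups carry the same label of mixed C57BL/6, CD1 and C3H background. Per the study's methods, pNSC clusters were picked singly, usually as clones. The source and culture of the Fibroblasts are given neither there nor in the labels. How many passages separate early from late is not labelled, and neither is exposure to low pH. Replicates are called biological in the methods without mention of separate cultures or animals, so each p-value reflects the spread between these arrays alone, which may be technical.

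Of 25697 probes, each array detected 11801 to 12836 (45.9 to 49.95%), and replicate arrays correlated at r = 0.990 to 0.996 across tested genes. All 8 neural stem cell markers on the array were detected in every neural group, whereas 5 of them (Sox2, Olig2, Fabp7, Bcan and Ncan) were at background in Fibroblasts. All 8 fibroblast markers were detected in Fibroblasts and 1 or 2 of the 8 in each neural group. Fibroblasts also showed 2 of 3 blood and macrophage markers on both arrays, Lyz2 and Aif1, while Ptprc was undetected. The summed level was 9.28 to 9.48 on the log2 scale, against 5.91 to 6.17 in the neural groups. Most of that level came from Lyz2, which read 9.38 and 9.14 in Fibroblasts. Aif1 was close to background, at 4.79 and 5.25 in Fibroblasts and 4.81 and 4.60 in Control-NSC. Xist was detected on both Fibroblasts arrays and on 0 of the other 10, whereas the Y-linked Kdm5d and Uty were detected on both arrays of all 6 groups. Their part in the results was not tested.

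Levels are normalized log2 intensities of one probe per gene, and differences are on the same scale. They are relative to the RNA on each array, and fewer expressing cells in a culture cannot be told apart from less RNA per cell. The chain genes were broadly expressed: 74 of 80 were detected on all 12 arrays. The exceptions (Uqcrfs1, Cox6a2, Cox6b2, Cox7a1, Cox8b and Atp5k) lay in complexes III, IV and V. Uqcrfs1, the Rieske iron-sulphur protein of complex III, and Atp5k, a small membrane subunit of the ATP synthase, were below background on both Fibroblasts arrays, with at least 1 detected array in every neural group. Cox6a2, Cox6b2 and Cox8b, described below, were below background in 5, 1 and 3 groups.

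**Figure D1:**
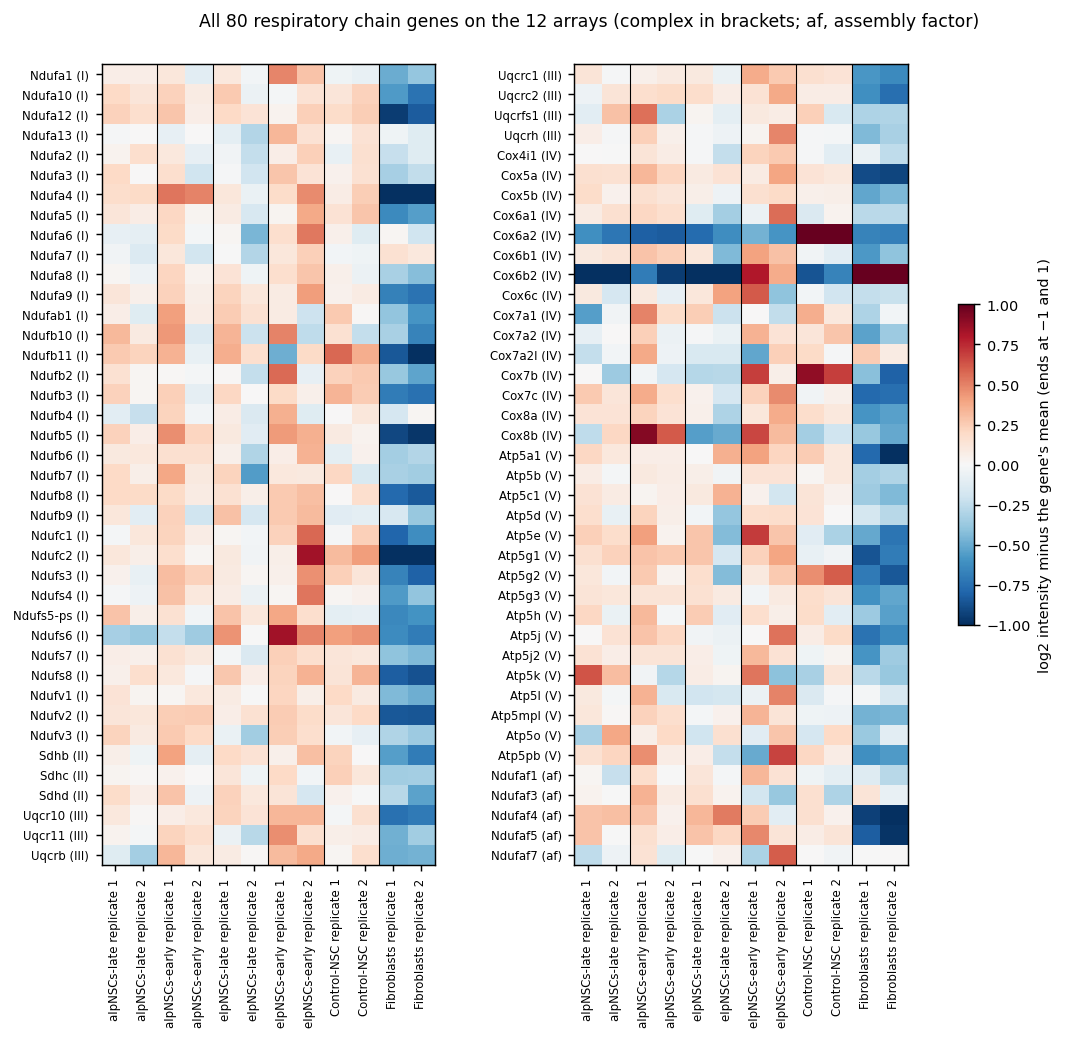
Normalized log2 intensity of each of the 80 chain genes (rows, complex in brackets) on each of the 12 arrays (columns), minus the gene's mean over the arrays; red is higher, blue lower, and the colour scale ends at −1 and 1. The 2 Fibroblasts columns are blue in most rows, and Cox6a2, Cox6b2, Cox7b, Cox8b and Ndufs6 depart from the pattern of their neighbours.

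Most chain genes of every complex were higher in peripheral and brain neural stem cells than in Fibroblasts. Against Fibroblasts, the mean of the 4 pNSC groups was higher in 62 and lower in 1 of 80 chain genes (limma, adjusted p under 0.05), where 67.8% of all tested genes were called, 39.6% higher and 28.2% lower. Control-NSC was higher in 54 and lower in 1, where 61.9% of all tested genes were called, 34.7% higher and 27.2% lower. The median difference of the chain genes was 0.58 for the pNSC mean and 0.52 for Control-NSC, against 0.13 and 0.11 over all tested genes. Both comparisons use the same Fibroblasts arrays and are not independent of each other. All 10 neural arrays lay above both Fibroblasts arrays for 54 of the 80 chain genes (67.5%), against 32.2% of all tested genes, and below them for 1 (1.25%), against 24%.

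By complex, the pNSC mean was higher than Fibroblasts in 29 of 34 complex I genes, 3 of 3 of complex II, 6 of 7 of complex III, 9 of 15 of complex IV, 12 of 16 of complex V and 3 of 5 assembly factors. For Control-NSC the counts were 24, 3, 6, 8, 11 and 2. The single lower gene in each comparison was Cox6b2 of complex IV. Median differences for the pNSC mean were 0.61, 0.51, 0.57, 0.51 and 0.59 for complexes I to V, and 0.27 for the assembly factors. For Control-NSC they were 0.62, 0.52, 0.57, 0.42 and 0.48, and 0.14. On single arrays, the median of complex I genes (each gene centred on its own mean) ran between −0.06 and 0.24 on the neural arrays and between −0.57 and −0.53 on the Fibroblasts arrays, with no overlap.

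**Figure D2:**
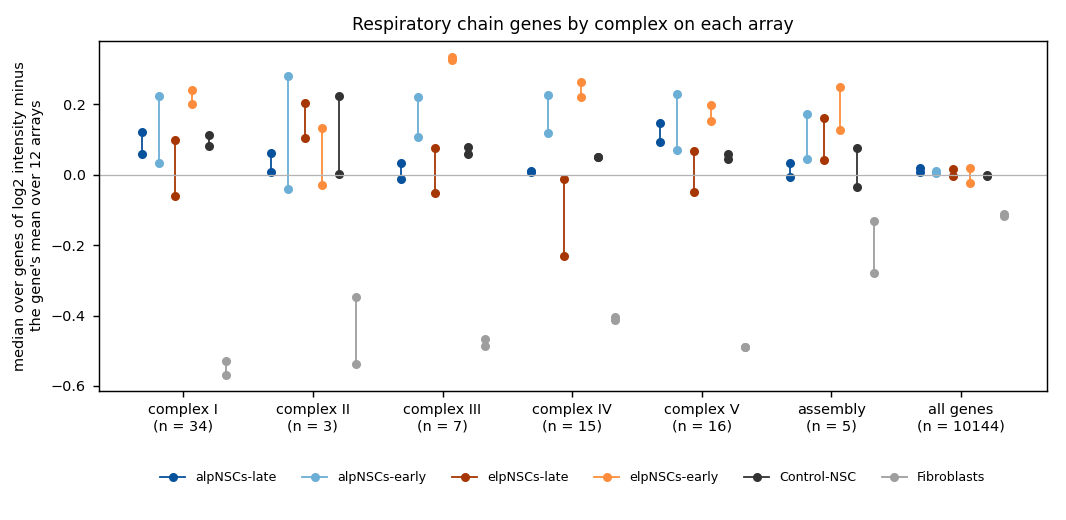
Median over the genes of a complex of the log2 intensity minus each gene's mean over 12 arrays (vertical axis), per array (points, 2 joined per group), for complexes I to V, the complex I assembly factors (assembly) and all 10144 tested genes. Fibroblasts lie lowest in each set; the complex IV median is −0.23 on one elpNSCs-late array and 0.05 on both Control-NSC arrays.

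In complex I, Ndufa4, a small subunit now also assigned to complex IV, read 13.19 and 13.21 on the alpNSCs-late arrays, 13.55 and 13.51 on alpNSCs-early, 13.13 and 12.95 on elpNSCs-late, 13.20 and 13.49 on elpNSCs-early, 13.09 and 13.26 on Control-NSC and 11.82 and 11.78 on Fibroblasts. The 10 neural arrays lay above both Fibroblasts arrays. The difference for the pNSC mean was 1.48 ± 0.10 (SE, n = 8 against 2 arrays), or 2.79-fold (adjusted p = 4.17e-08). Those 8 arrays come from the lung and limb lines, each sampled early and late, and are not 8 separate lines. For Control-NSC the difference was 1.38 ± 0.13 (n = 2 against 2, adjusted p = 1.07e-06). Ndufc2, a membrane-arm subunit, read 12.35 and 12.29 on the alpNSCs-late arrays, 12.40 and 12.25 on alpNSCs-early, 12.33 and 12.20 on elpNSCs-late, 12.29 and 13.07 on elpNSCs-early, 12.55 and 12.65 on Control-NSC and 11.23 and 11.19 on Fibroblasts. No neural array overlapped Fibroblasts here either, and the differences were 1.19 ± 0.16 for the pNSC mean (adjusted p = 2.01e-05) and 1.39 ± 0.20 for Control-NSC (adjusted p = 4.94e-05). Ndufb5, another membrane-arm subunit, was higher by 1.16 ± 0.10 in the pNSC mean than in Fibroblasts (adjusted p = 3.85e-07) and by 1.00 ± 0.13 in Control-NSC (adjusted p = 1.7e-05). Ndufb11, an X-linked membrane-arm subunit, was 2.72-fold higher in Control-NSC than in Fibroblasts on the brighter of its 2 probes (adjusted p = 5.68e-05), whereas the dimmer probe differed by 0.22 (adjusted p = 0.2 among all kept probes). Complex I genes without a call against Fibroblasts included Ndufa13 and Ndufa6, both accessory subunits: Ndufa13 differed by 0.09 ± 0.10 for the pNSC mean and by 0.17 ± 0.12 for Control-NSC.

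The assembly factors were split. Ndufaf4 read 9.63 and 9.65 on the alpNSCs-late arrays, 9.63 and 9.39 on alpNSCs-early, 9.68 and 9.87 on elpNSCs-late, 9.60 and 9.24 on elpNSCs-early, 9.51 and 9.39 on Control-NSC and 8.41 and 8.17 on Fibroblasts. Neural and Fibroblasts arrays did not overlap for it, with 1.30 ± 0.12 for the pNSC mean (adjusted p = 7.08e-07) and 1.16 ± 0.15 for Control-NSC (adjusted p = 2.18e-05). Ndufaf5, which modifies a complex I subunit during assembly, was 2.15-fold higher in the pNSC mean than in Fibroblasts (adjusted p = 2.27e-06) and 2.01-fold higher in Control-NSC (adjusted p = 5.47e-05). Ndufaf3 and Ndufaf7 were called in neither comparison.

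All measured subunits of complex II, which also serves the tricarboxylic acid cycle, were higher in both kinds of neural stem cell. Sdhb, the iron-sulphur subunit, read 10.26 and 10.16 on the alpNSCs-late arrays, 10.60 and 10.11 on alpNSCs-early, 10.40 and 10.34 on elpNSCs-late, 10.25 and 10.50 on elpNSCs-early, 10.42 and 10.20 on Control-NSC and 9.65 and 9.50 on Fibroblasts. The neural arrays lay above Fibroblasts throughout, by 0.75 ± 0.13 for the pNSC mean (adjusted p = 0.000196) and 0.74 ± 0.16 for Control-NSC (adjusted p = 0.0016). Sdhc and Sdhd, the membrane anchors, were higher by 0.38 and 0.51 in the pNSC mean (adjusted p = 0.00298 and 0.00223) and by 0.52 and 0.43 in Control-NSC (adjusted p = 0.0022 and 0.0269). In complex III, Uqcr11, its smallest subunit, was higher by 0.50 ± 0.10 in the pNSC mean (adjusted p = 0.000871) and by 0.48 ± 0.13 in Control-NSC (adjusted p = 0.00627). Uqcrfs1 was the only complex III gene called in neither comparison. In complex V, Atp5g2, one of 3 genes for the c subunit of the rotor ring, was 1.78-fold higher in the pNSC mean (adjusted p = 0.000175) and 2.48-fold higher in Control-NSC (adjusted p = 3.25e-05) than in Fibroblasts.

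**Figure D3:**
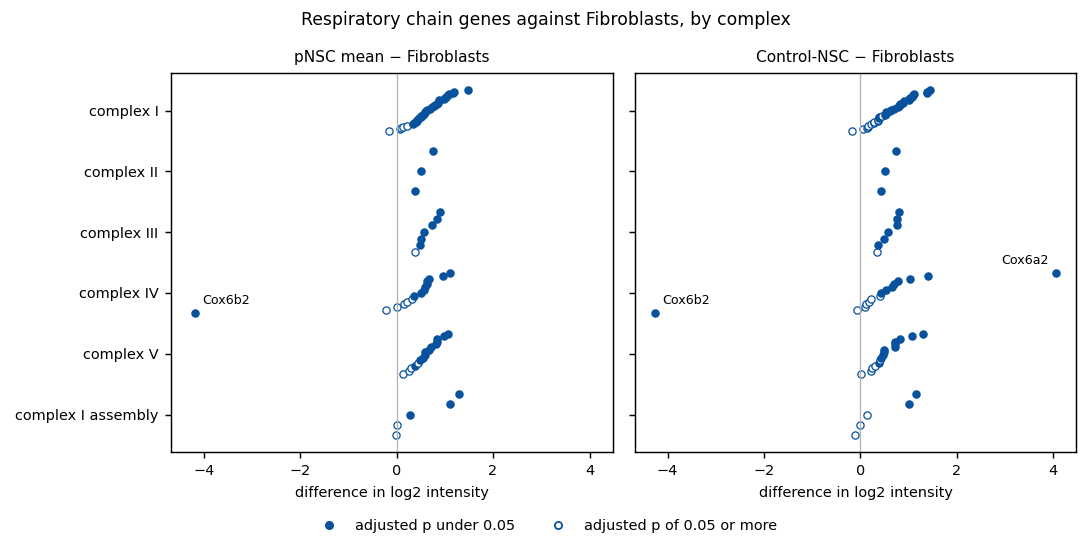
Difference in log2 intensity of each chain gene (points) from Fibroblasts, for the pNSC mean (left) and Control-NSC (right), by complex; filled points have an adjusted p under 0.05. Most points lie right of 0 at a median of 0.58 and 0.52, with Cox6b2 near −4 in both panels and Cox6a2 near 4 for Control-NSC alone.

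Complex IV was the most mixed of the complexes. Its paired subunits differed in pattern. Of the broad forms, Cox6b1, Cox7a2 and Cox8a were called higher in both comparisons, Cox6a1 in the pNSC mean alone and Cox4i1 in neither. Cox5a, a matrix-side subunit, read 12.37 and 12.36 on the alpNSCs-late arrays, 12.54 and 12.42 on alpNSCs-early, 12.30 and 12.35 on elpNSCs-late, 12.29 and 12.60 on elpNSCs-early, 12.34 and 12.31 on Control-NSC and 11.31 and 11.29 on Fibroblasts. Every neural array was above Fibroblasts, by 1.11 ± 0.10 for the pNSC mean (adjusted p = 4.33e-07) and 1.03 ± 0.12 for Control-NSC (adjusted p = 9.76e-06), and Cox5b was higher by 0.59 and 0.54 (adjusted p = 4.9e-05 and 0.000793). Cox4i1, the broad form of the largest nuclear-encoded subunit, read 13.07 and 13.06 on the alpNSCs-late arrays, 13.19 and 13.14 on alpNSCs-early, 13.05 and 12.83 on elpNSCs-late, 13.29 and 13.33 on elpNSCs-early, 13.05 and 12.96 on Control-NSC and 13.00 and 12.81 on Fibroblasts. Its neural and Fibroblasts arrays overlapped, and it was called in neither comparison (adjusted p = 0.0577 for the pNSC mean and 0.479 for Control-NSC). Cox7a2, the broad form of its pair, was higher by 0.51 in the pNSC mean and by 0.65 in Control-NSC (adjusted p = 0.000956 and 0.00103), whereas Cox7a1, the heart and muscle form, had differences of 0.15 and 0.40 (adjusted p = 0.434 and 0.115). Cox8a, the broad form, was higher by 0.67 and 0.71 (adjusted p = 0.00014 and 0.000697).

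Cox6b2, known as the testis form of a subunit on the outer face of complex IV, was the exception in direction. It read 4.68 and 4.86 on the alpNSCs-late arrays, 5.16 and 4.91 on alpNSCs-early, 4.45 and 4.43 on elpNSCs-late, 6.66 and 6.23 on elpNSCs-early, 4.99 and 5.19 on Control-NSC and 9.32 and 9.39 on Fibroblasts. Both Fibroblasts arrays lay above all neural arrays, and among the neural groups elpNSCs-early lay above the others. Cox6b2 was at least 17.3-fold lower in the pNSC mean than in Fibroblasts (adjusted p = 9.65e-12), a bound because elpNSCs-late was below background, and 19.2-fold lower in Control-NSC (adjusted p = 1.24e-10). Its broad partner Cox6b1 was higher by 0.63 ± 0.13 in the pNSC mean than in Fibroblasts (adjusted p = 0.000721) and by 0.42 ± 0.16 in Control-NSC (adjusted p = 0.0372). The Cox6b1 arrays overlapped, with 12.32 on elpNSCs-late replicate 2 against 12.36 on Fibroblasts replicate 2.

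In both comparisons cell type and donor cannot be told apart, and Xist was detected in Fibroblasts alone. The 3 X-linked chain genes (Ndufa1, Ndufb11 on its brighter probe, and Cox7b) were all higher in both comparisons, as were most chain genes (62 and 54 of 80). A part of donor sex in the differences was not tested. Leaving out each array in turn gave 52 to 65 calls for the pNSC mean and 47 to 55 for Control-NSC.

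Promoter sequence was examined because most chain genes were higher than in Fibroblasts and because NRF1, GABPA (NRF2) and YY1 are factors known to act on nuclear genes of the chain. RefSeq promoters (GRCm38.p6, 250 bases before to 50 after the start) were matched for 69 of the 80 genes. A NRF1 motif, spelled GCGCA and GCGC with 1 base of any kind between them, occurred on either strand in 16 of the 69 (23.2%) and in 1254 of 17492 promoters of all protein-coding genes (7.17%). The letters AAGATGGCG, a YY1 motif, occurred in 7 (10.1%) against 2.14% of all, and CCGGAAGT, a GABPA motif, in 5 (7.25%) against 5.69%. At least 1 of the 3 motifs, with each gene counted once, was found in 26 of the 69 (37.7%), against 13.9% of all promoters. The 69 genes had passed the detection filter, whereas the set of all promoters was not limited to such genes. These shares therefore do not show an excess particular to the chain. By complex, the NRF1 letters occurred in 6 of 14 complex V promoters, 5 of 31 of complex I, 1 of 12 of complex IV, 1 of 5 of complex III, 1 of 2 of complex II and 2 of 5 assembly factor promoters. The following stretches, given 5′ to 3′ on the gene's strand with the motif or its reverse complement in capitals, show the NRF1 letters in the window of a gene from complexes I, II and V and of an assembly factor, and the GABPA letters in that of a complex III gene.
Ndufs6, NRF1, chr13:73328483-73328520, minus strand: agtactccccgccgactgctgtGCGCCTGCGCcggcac
Sdhd, NRF1, chr9:50603897-50603950, minus strand: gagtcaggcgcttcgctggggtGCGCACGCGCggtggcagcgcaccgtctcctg
Atp5g2, NRF1, chr15:102671058-102671111, minus strand: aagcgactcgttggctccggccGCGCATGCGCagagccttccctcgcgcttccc
Ndufaf4, NRF1, chr4:24897948-24898001, plus strand: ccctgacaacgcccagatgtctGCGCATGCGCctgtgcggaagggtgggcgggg
Uqcr11, GABPA, chr10:80406858-80406909, minus strand: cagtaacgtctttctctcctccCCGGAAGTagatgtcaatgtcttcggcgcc
The promoter window of Cox6b2, the gene lower than in Fibroblasts, held none of the 3 motifs. Most of the 69 windows held none either, including those of Ndufa4, Ndufc2, Ndufb5 and Cox5a, which were higher than in Fibroblasts. In complex IV, 2 of 12 windows held at least 1 motif. A link between the motifs and the direction of a gene was not tested. The 120 bases before the start of Cox6b2 are shown.
Cox6b2, upstream stretch, chr7:4753095-4753214, minus strand: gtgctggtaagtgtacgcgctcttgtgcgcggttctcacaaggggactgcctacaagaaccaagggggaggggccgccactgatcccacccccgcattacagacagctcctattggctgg
Such a match is a run of letters, and binding was not measured. Nrf1, which encodes the factor of the first motif, read 9.13 and 9.27 on the alpNSCs-late arrays, 9.07 and 9.28 on alpNSCs-early, 8.80 and 8.71 on elpNSCs-late, 8.65 and 8.75 on elpNSCs-early, 8.96 and 9.04 on Control-NSC and 7.87 and 7.98 on Fibroblasts. Its neural arrays all lay above Fibroblasts, by 1.03 ± 0.09 for the pNSC mean (adjusted p = 7.16e-07) and 1.08 ± 0.12 for Control-NSC (adjusted p = 5.58e-06). Gabpa read 5.60 to 6.05 on the neural arrays and 5.41 and 5.60 on Fibroblasts, with 0.37 ± 0.12 for the pNSC mean (adjusted p = 0.0154) and 0.26 ± 0.15 for Control-NSC (adjusted p = 0.154). Gabpb1, its partner subunit, was lower by 0.59 ± 0.17 in the pNSC mean than in Fibroblasts, with overlapping arrays (adjusted p = 0.00915), and differed by −0.39 ± 0.22 in Control-NSC (adjusted p = 0.147). Yy1 did not pass the detection filter.

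Other mitochondrial gene lists were counted in the same fit, since the chain genes are a part of the organelle. The shares over all tested genes were 39.6% higher and 28.2% lower for the pNSC mean, and 34.7% and 27.2% for Control-NSC. Of 71 mitochondrial ribosome genes, which translate the subunits encoded by mitochondrial DNA, the pNSC mean was higher than Fibroblasts in 54 and lower in 2 (median 0.51), and Control-NSC was higher in 48 and lower in 1 (median 0.59). These counts were close to those of the chain genes, and the lists were not tested against each other. Of 23 genes of import and inner membrane organization, 18 were higher and 2 lower in each comparison. Of 22 regulators of mitochondrial transcription, replication and biogenesis, 16 were higher and 1 lower in the pNSC mean, and 14 and 0 in Control-NSC (15 and 0 at an unadjusted p under 0.05). Polg, the mitochondrial DNA polymerase, was 4.22-fold higher in the pNSC mean (adjusted p = 1.7e-09) and 4.27-fold higher in Control-NSC (adjusted p = 2.2e-08). Ppargc1a, a coactivator of mitochondrial biogenesis, was below background in Fibroblasts. Relative to that floor it was higher by at least 3.24-fold for the pNSC mean and at least 3.23-fold for Control-NSC.

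Of 23 genes of the tricarboxylic acid cycle and pyruvate entry, the pNSC mean was higher than Fibroblasts in 14 and lower in 4, and Control-NSC in 13 and 3. Idh3a, a subunit of isocitrate dehydrogenase, was 2.9-fold higher in the pNSC mean and 2.82-fold higher in Control-NSC (adjusted p = 1.14e-08 and 1.94e-07). Of 10 genes on a list of further subunits, electron carriers and proteins associated with the chain, which include factors of assembly and membrane organization, 4 were higher and 2 lower in the pNSC mean and 3 and 3 in Control-NSC. Those higher included Cyc1, the cytochrome c1 of complex III (1.28 and 1.33), and Cycs, cytochrome c (1.52 and 1.43). Of 9 carriers and energy-transfer genes, 7 were higher and 1 lower in each comparison: Slc25a5, which exchanges ADP for ATP, was 3.46-fold higher in the pNSC mean and 3.51-fold higher in Control-NSC. Of 35 assembly factors outside the symbol rule, 17 were higher and 6 lower in the pNSC mean and 14 and 4 in Control-NSC. For these assembly factors and the list of further subunits, the counts of higher genes lay near the shares over all tested genes (39.6% and 34.7%). They are not read as a result about those lists. Glycolysis genes went both ways, with 5 of 18 higher and 5 lower in the pNSC mean and 7 and 5 in Control-NSC.

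Peripheral lines were then set against Control-NSC, to ask whether pNSCs carry the chain expression of brain neural stem cells. Of the 80 chain genes, 1 was higher and 3 lower in the pNSC mean (5%), where 19.7% of all tested genes were called, 9.93% higher and 9.75% lower. The median difference was 0.03. The 95% interval of the difference lay within 1.5-fold in either direction for 69 of the 80 (86.2%), against 75.1% of all tested genes, so a difference beyond 1.5-fold was within the interval for the other 11. Group means over the 5 neural groups spanned a median of 0.32 per chain gene, against 0.43 over all tested genes. Of the 80, 67 spanned under 0.5 (83.8%), against 59% of all tested genes. Chain genes and all tested genes were not matched for level in these shares or in those of later comparisons. All of these comparisons share the 2 Control-NSC arrays, and tissue of origin cannot be told apart from line, donor, age, time in culture or treatment.

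Group by group against Control-NSC, elpNSCs-early was higher in 4 and lower in 2 chain genes, where 26.1% of all tested genes were called, 13.5% higher and 12.5% lower. At an unadjusted p under 0.05 this group had 16 higher and 2 lower chain genes, and the adjusted calls were 10 and 2 with an offset of 50, 11 and 1 with no background correction and 12 and 2 with a trended prior, but 3 and 3 with median scaling. Without Control-NSC replicate 1 or 2 there were 2 or 3 calls, and without elpNSCs-early replicate 1 or 2 there were 11 or 12. The alpNSCs-early group was higher in 1 and lower in 3, where 18.2% were called, 9.02% higher and 9.14% lower. The elpNSCs-late group was lower in 4, where 15.3% were called, 7.52% higher and 7.79% lower. The alpNSCs-late group was lower in 3, where 12.4% were called, 5.88% higher and 6.53% lower, with 0 higher in either late group (limma, adjusted p under 0.05), and 1 higher in each at an unadjusted p under 0.05. Most of these calls fell on 4 genes: Cox6a2, Cox7b, Cox8b and Ndufs6.

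Cox6a2, the heart and skeletal muscle form of a complex IV subunit, separated Control-NSC from all other groups. It read 4.52 and 4.41 on the alpNSCs-late arrays, 4.31 and 4.30 on alpNSCs-early, 4.36 and 4.51 on elpNSCs-late, 4.66 and 4.54 on elpNSCs-early, 8.55 and 8.49 on Control-NSC and 4.46 and 4.45 on Fibroblasts. It was detected on the 2 Control-NSC arrays and on 0 of the other 10, and was at least 13.9-fold lower in the pNSC mean than in Control-NSC (adjusted p = 2.4e-11). Control-NSC exceeded Fibroblasts by at least 14.8-fold (adjusted p = 8.52e-12). Each peripheral group was at least 13.8-fold lower than Control-NSC. Cox6a2 passed the detection filter through the Control-NSC arrays alone, so these p-values concern a gene that this group selected. The filter was not reapplied when single arrays were left out, so those fits do not test the selection. Of 6 striated muscle markers on the array, 5 (Acta1, Ckm, Des, Tnnc1 and Myl1) were at background in Control-NSC, and the list's summed level was 7.06 to 7.15 there, against 6.96 to 7.16 in the peripheral groups and 7.45 to 7.47 in Fibroblasts. The broad partner Cox6a1 read 12.77 and 12.85 in alpNSCs-late, 12.90 and 12.86 in alpNSCs-early, 12.57 and 12.35 in elpNSCs-late, 12.63 and 13.25 in elpNSCs-early and 12.55 and 12.73 in Control-NSC, and was called in no comparison with Control-NSC.

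**Figure D4:**
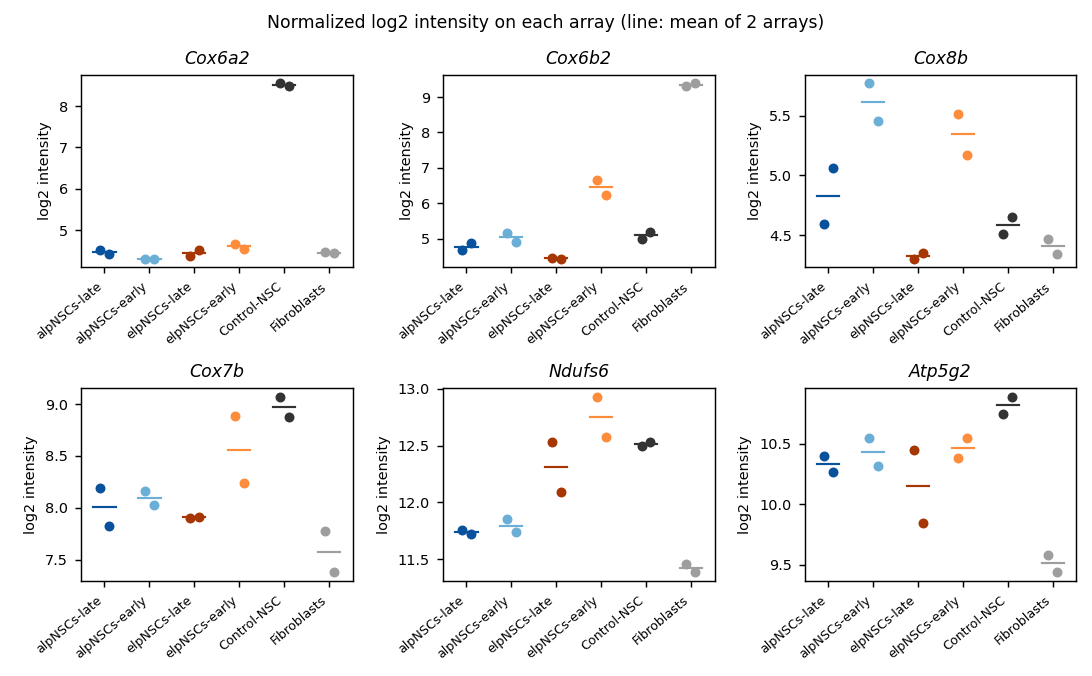
Normalized log2 intensity (vertical axes, each with its own range) of 6 chain genes on every array (points) with the group mean (line). Cox6a2 is high in Control-NSC alone (8.49 and 8.55), Cox6b2 in Fibroblasts (9.32 and 9.39), and the 4 lung arrays have the lowest neural readings of Ndufs6 (11.72 to 11.85).

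Cox7b, an X-linked subunit of complex IV, was lower in 3 of the 4 peripheral groups. It read 8.19 and 7.82 on the alpNSCs-late arrays, 8.16 and 8.02 on alpNSCs-early, 7.90 and 7.91 on elpNSCs-late, 8.88 and 8.24 on elpNSCs-early, 9.07 and 8.88 on Control-NSC and 7.77 and 7.38 on Fibroblasts. The alpNSCs-late, alpNSCs-early and elpNSCs-late arrays all lay below Control-NSC, while elpNSCs-early touched its range. The differences from Control-NSC were −0.97 for alpNSCs-late, −0.88 for alpNSCs-early, −1.07 for elpNSCs-late and −0.41 for elpNSCs-early, each ± 0.21 (SE, n = 2 against 2), with adjusted p = 0.00713, 0.00945, 0.00341 and 0.172. The call for the pNSC mean (−0.83, adjusted p = 0.00283) was lost without Control-NSC replicate 1 (adjusted p = 0.0648).

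Ndufs6, an accessory complex I subunit close to the NADH-oxidizing module, marked the lung lines. It read 11.76 and 11.72 on the alpNSCs-late arrays, 11.85 and 11.74 on alpNSCs-early, 12.54 and 12.09 on elpNSCs-late, 12.93 and 12.58 on elpNSCs-early, 12.50 and 12.54 on Control-NSC and 11.46 and 11.39 on Fibroblasts. All 4 lung arrays lay below all limb and Control-NSC arrays and above both Fibroblasts arrays. Compared with Control-NSC, Ndufs6 was 1.71-fold lower in alpNSCs-late (adjusted p = 0.00515) and 1.65-fold lower in alpNSCs-early (adjusted p = 0.00625), while elpNSCs-late and elpNSCs-early differed by −0.20 and 0.24 (adjusted p = 0.481 and 0.314). The alpNSCs-early call was lost without alpNSCs-early replicate 2 (adjusted p = 0.0531). Atp5g2 was the only complex V gene lower in the pNSC mean than in Control-NSC, by 0.47 ± 0.14 (adjusted p = 0.0316). Its peripheral arrays read 10.40 and 10.26 in alpNSCs-late, 10.55 and 10.32 in alpNSCs-early, 10.45 and 9.85 in elpNSCs-late and 10.38 and 10.55 in elpNSCs-early, all below the 10.75 and 10.89 of Control-NSC. That call was lost without alpNSCs-early replicate 2, alpNSCs-late replicate 2 or either Control-NSC array.

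Cox8b, the heart and muscle form of the smallest complex IV subunit, was the gene called higher in the pNSC mean. It read 4.60 and 5.06 on the alpNSCs-late arrays, 5.77 and 5.46 on alpNSCs-early, 4.30 and 4.35 on elpNSCs-late, 5.52 and 5.17 on elpNSCs-early, 4.51 and 4.65 on Control-NSC and 4.47 and 4.34 on Fibroblasts. The early arrays of both lines lay above all others, and Control-NSC, elpNSCs-late and Fibroblasts were below background. Cox8b was detected on 5 arrays, all of pNSCs and including both early arrays of each line. It passed the detection filter through these arrays alone. Its p-values, here and between late and early arrays, therefore concern a gene that the groups with high readings selected. The alpNSCs-early and elpNSCs-early groups were at least 1.82-fold and 1.51-fold higher than Control-NSC (adjusted p = 0.001 and 0.00611). The alpNSCs-late group was not called against Control-NSC (adjusted p = 0.473), and no fold is given for elpNSCs-late, which like Control-NSC was below background. The call for the pNSC mean (adjusted p = 0.0378) was lost under 13 of 22 other settings. The elpNSCs-early group was also higher in Cox6b2 (2.56-fold, adjusted p = 4.33e-05), in Atp5e, a central-stalk subunit of the ATP synthase (1.62-fold, adjusted p = 0.0344), and in Ndufa1, an X-linked complex I subunit (1.36-fold, adjusted p = 0.0184). The elpNSCs-late group was lower in Cox6b2 (at least 1.29-fold, adjusted p = 0.0131) and in Atp5g2 (by 0.67, adjusted p = 0.0222). Ndufb11 was lower in elpNSCs-early (1.53-fold, adjusted p = 0.0461), a call lost under 15 of 22 settings.

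Comparing late with early arrays asked whether the chain genes drift in culture. In the lung line, alpNSCs-late differed from alpNSCs-early in 1 chain gene, which was lower, where 4.83% of all tested genes were called, 2.11% higher and 2.72% lower. The median difference was −0.06, and 65 of 80 intervals lay within 1.5-fold (81.2%, against 70.4% of all tested genes). That gene was Cox8b, lower by 0.79 ± 0.17 in alpNSCs-late (adjusted p = 0.0214), which had passed the detection filter through pNSC arrays alone. The call was lost without alpNSCs-early replicate 1 or alpNSCs-late replicate 1.

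In the limb line, elpNSCs-late was lower than elpNSCs-early in 11 chain genes and higher in 0 (limma, with 25 lower and 3 higher at an unadjusted p under 0.05), where 23.8% of all tested genes were called, 11.7% higher and 12.1% lower. The 11 are 13.8% of the chain genes, close to the share of lower genes among all tested. The median difference was −0.21, against 0.00 over all tested genes, and 69 of 80 differences were negative. This direction rests on the scaling of the arrays: with median scaling in place of quantiles, the median over all tested genes was 0.15 and that of the chain genes 0.00, and 6 chain genes were called higher and 2 lower, with 78.4% of all calls higher in place of 49.2%. Relative to all genes the chain genes were lower by 0.21 with quantiles and by 0.14 with median scaling. The 2 genes called lower under both scalings were Cox6b2 and Cox8b. Without elpNSCs-late replicate 2 the same 2 genes remained of the 11.

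Complex IV held 6 of the 11 lower genes (Cox4i1, Cox6b1, Cox6b2, Cox7b, Cox7c and Cox8b), complex I held 4 (Ndufa13, Ndufa6, Ndufb5 and Ndufv3) and complex III held 1 (Uqcr11). Complexes II and V and the assembly factors had 0 in limma, at medians of −0.01, −0.20 and −0.06. At an unadjusted p under 0.05, complex II had 0, complex V had 2 lower and 1 higher, and the assembly factors had 2 higher. Cox6b2 was at least 3.31-fold lower in elpNSCs-late than in elpNSCs-early (adjusted p = 4.28e-06), and Cox8b at least 1.54-fold lower (adjusted p = 0.0012), both below background on the late arrays. The other 9 were lower by 0.37 to 0.65 (adjusted p = 0.0179 to 0.0436), and all 9 calls were lost without elpNSCs-late replicate 2. Cox6b1, for example, read 12.88 and 12.32 in elpNSCs-late and 13.17 and 13.06 in elpNSCs-early, and Ndufa6 read 11.51 and 11.03 in elpNSCs-late and 11.66 and 12.02 in elpNSCs-early. In both, elpNSCs-late replicate 2 was the lowest of the 12 arrays or next to it, and elpNSCs-late replicate 1 lay closer to the early arrays.

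**Figure D5:**
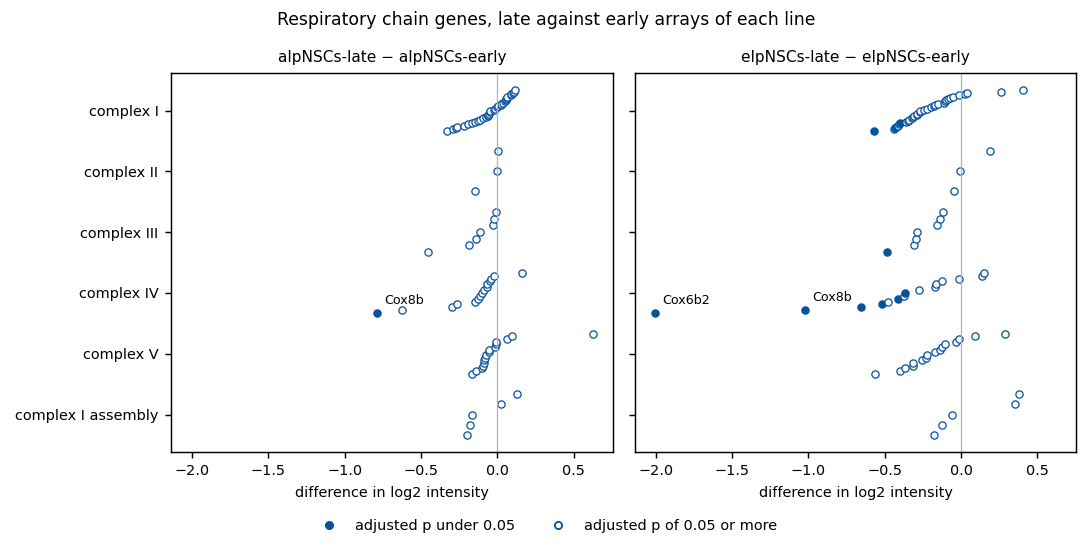
Difference in log2 intensity of each chain gene (points) between late and early arrays, for alpNSCs (left) and elpNSCs (right), by complex; filled points have an adjusted p under 0.05. One filled point (Cox8b, −0.79) stands on the left, and 11 on the right, led by Cox6b2 (−2.01) and Cox8b (−1.02), whose measured differences involve late arrays below background.

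The late-early changes of the lines were compared directly. The change in alpNSCs minus that in elpNSCs was called for 1 chain gene, where 5.66% of all tested genes were called, 3.18% with a positive and 2.47% with a negative difference. It was Cox6b2, with a difference of changes of at least 1.46 when elpNSCs-late, below background on both arrays, is set to the background level. The measured intensities gave 1.74 ± 0.22 (adjusted p = 0.00063). In the lung line, alpNSCs-late read 4.68 and 4.86 against 5.16 and 4.91 in alpNSCs-early (−0.27, adjusted p = 0.465). The change of Cox8b, also below background in elpNSCs-late, did not pass the test of a difference between the lines (adjusted p = 0.677).

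Lung and limb lines were compared at each time. At the early time, alpNSCs were lower than elpNSCs in 2, where 12.5% of all tested genes were called, 5.84% higher and 6.65% lower. At the late time they were lower in 1, where 10.9% were called, 5.29% higher and 5.61% lower, with 0 higher at either time in limma. At an unadjusted p under 0.05, 2 were higher and 7 lower early, and 2 higher and 2 lower late. Without elpNSCs-early replicate 2 the early comparison had 9 calls, 2 higher and 7 lower, and without elpNSCs-early replicate 1 it had 4, all lower. The early pair were Ndufs6, 1.94-fold lower in alpNSCs-early (adjusted p = 0.00137), and Cox6b2, 2.66-fold lower (adjusted p = 5.48e-05). At the late time Ndufs6 was 1.49-fold lower in alpNSCs-late (adjusted p = 0.0363), a call lost under 12 of 22 settings. At least 73.8% of the chain genes had intervals within 1.5-fold between the lines. The counts were 59 of 80 early, against 62.2% of all tested genes, and 63 of 80 late, against 65.1%.

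In elpNSCs-late, 9 of 18 glycolysis genes were higher than in elpNSCs-early and 0 lower (limma, and the same counts at an unadjusted p under 0.05; median 0.35), led by Hk2, which phosphorylates glucose (4.26-fold, adjusted p = 3.36e-05), and Pfkl, a phosphofructokinase (3.18-fold, adjusted p = 8.32e-05). Pdk1, a kinase that restrains pyruvate entry into mitochondria, read 7.13 and 8.24 in elpNSCs-late and 5.81 and 5.81 in elpNSCs-early, and 6.14 and 6.68 in alpNSCs-late and 5.28 and 5.29 in alpNSCs-early. Late arrays lay above early arrays in both lines, by 1.87 ± 0.28 in elpNSCs (adjusted p = 0.000443) and 1.13 ± 0.28 in alpNSCs (adjusted p = 0.0368). Of 71 mitochondrial ribosome genes, 17 were higher and 0 lower in elpNSCs-late in limma (22 and 4 at an unadjusted p under 0.05; median 0.11). For both lists the shares over all tested genes were the 11.7% higher and 12.1% lower given above, a split that changed with scaling. Of the 5 neuron markers on the array, Rbfox3 read 5.94 and 6.24 in elpNSCs-late against 5.07 and 4.98 in elpNSCs-early. Dcx read 5.04 and 5.25 against 4.75 and 4.70, close to background. Tubb3, at 4.54 and 4.69 against 4.87 and 4.47, was not higher, and Snap25 was undetected in both. On at least 1 array, 4 of the 5 were detected in elpNSCs-late and 3 of 5 in elpNSCs-early. The list's summed level was 7.32 to 7.53 in elpNSCs-late against 6.89 to 7.09 in elpNSCs-early. Of the 8 fibroblast markers, 2 were higher (Fbln1 and Acta2) and the other 6 were at background in both. The summed level was 9.83 to 9.89 in elpNSCs-late against 8.95 to 9.03 in elpNSCs-early. Control-NSC, at 10.04 to 10.07, and the lung groups, at 10.12 to 10.36, lay above both limb groups. Of the 8 neural stem cell markers, 2 were lower in elpNSCs-late (median −0.20). Their part in the lower chain genes of elpNSCs-late was not tested.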

How the data were processed

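The 12 arrays were Illumina mouse bead arrays. The deposited table held raw intensities, each with a detection p-value, and the authors also deposited log2 values, normalized per the labels with tools named as BeadStudio 3.2, RMA and lumi. Deposited intensities were background-corrected with the detection p-values, given an offset of 16, quantile-normalized and taken to log2 (neqc, limma 3.58.1, R 4.3.3). Probes with a detection p-value under 0.05 on at least 2 arrays were kept (14869 of 25697), and the probe with the highest mean stood for its gene. One linear model over the 6 groups gave 12 contrasts, with Benjamini-Hochberg adjustment over 10144 genes. Gene symbols came from the platform annotation: 23978 probes had 1 symbol and 1719 none, and 23962 matched RefSeq. The script was tested on simulated data. Fold changes against a group below background were given as bounds, and the adjusted p-values beside them come from the measured intensities. Replicate numbers were not used to pair the arrays in the reported analysis, as no label ties them to a shared source. A fit with the replicate number as a block is among the alternatives.

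Genes were named by rule: in each comparison up to 6 called chain genes with the largest rise and up to 6 with the largest fall whose arrays did not overlap, Sdha to Sdhd, the paired complex IV subunits, genes below background in a whole group, genes called between late and early arrays, and up to 4 genes per other list with the smallest p. Other names were chosen after their values were seen. The members and lists were chosen with earlier results of these data known. Of 13 chain genes with more than 1 kept probe, 0 of 156 probe comparisons gave opposite calls.

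Alternatives were the deposited log2 values, uncorrected background, an offset of 50, scaling by the median, no or a stricter filter (detection p-value under 0.01), the mean over probes, a trended prior, a replicate block, the compared arrays alone, and each array left out.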

Additional observations from a re-analysis of the deposited data

Results flagged for a closer look

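The change of Cox6b2 between late and early arrays differed between the lines. The change in alpNSCs minus that in elpNSCs was 1.74 on the log2 scale as measured (limma, adjusted p = 0.00063), and this difference was itself tested. Since elpNSCs-late was below background on both arrays, it is a bound of at least 1.46 with that group at the background level. With 2 arrays per group, no group could be checked for a single array far from the others.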

How the results depend on the processing

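Of 149 calls of single chain genes, 103 held under all 22 other settings and 46 were lost under at least 1, and none changed direction. Counts of called chain genes moved as follows. With the deposited log2 values, the pNSC mean against Control-NSC had 2 calls (4 in the reported analysis), elpNSCs-late against early 4 (11), alpNSCs-late against early 0 (1), and alpNSCs-late against elpNSCs-late 2 (1). With no detection filter, the pNSC mean against Control-NSC had 2 and alpNSCs-late against elpNSCs-late 0. With an offset of 50, elpNSCs-early against Control-NSC had 12 (6), elpNSCs-late against early 18, alpNSCs-late against early 2 and alpNSCs-late against elpNSCs-late 2. With no background correction these were 12 for elpNSCs-early against Control-NSC, 20 for elpNSCs-late against early, 2 for alpNSCs-late against elpNSCs-late, and 4 for alpNSCs-early against elpNSCs-early (2). With a trended prior they were 14 for elpNSCs-early against Control-NSC, 20 for elpNSCs-late against early, 2 for alpNSCs-late against early and 2 for alpNSCs-late against elpNSCs-late. With the compared arrays alone, alpNSCs-late against Control-NSC had 5 (3), elpNSCs-late against early 2, and the alpNSCs late-early and late lung-limb comparisons 0 each. With median scaling, elpNSCs-late against early had 8, and the difference of changes 3 (1). Median scaling also changed the sign of the chain genes' median difference, to 0.02 for alpNSCs-early and −0.07 for alpNSCs-late against elpNSCs, 0.03 for elpNSCs-late against Control-NSC and −0.06 for the difference of changes. The cause was not tested.

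Leaving out 1 array at a time gave 47 to 55 calls for Control-NSC against Fibroblasts, 52 to 65 for the pNSC mean against Fibroblasts, 1 to 6 for the pNSC mean against Control-NSC, 2 to 12 for elpNSCs-early, 2 to 5 for alpNSCs-early, 2 to 4 for elpNSCs-late and 2 to 4 for alpNSCs-late against Control-NSC, 2 to 18 for elpNSCs late against early, 0 to 2 for alpNSCs late against early, 2 to 9 and 0 to 3 for lung against limb early and late, and 1 to 3 for the difference of changes. Where an array was left out, the lone array was assumed to vary like the other groups.

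With the replicate number as a block, the counts were 59 for Control-NSC and 66 for the pNSC mean against Fibroblasts, 6 for the pNSC mean against Control-NSC, 8 and 4 for elpNSCs early and late and 4 and 3 for alpNSCs early and late against it, 16 and 1 for late against early in elpNSCs and alpNSCs, 3 and 2 for lung against limb early and late, and 1 for the difference of changes. Arrays of the same number deviated together at r = −0.15 to 0.24 over 15 pairs of groups, with 10 pairs over 0.1. As not every pair was over 0.1 and no label ties the numbers to a shared source, they were not read as a pairing, though the block moved the late against early calls in elpNSCs to 16 (11). Bead intensities near background and 2 arrays per group limit the precision.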
